A study of Mus musculus with 28 samples.

Results

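The comparison described here is that of di(2-ethylhexyl) phthalate (DEHP), a plasticizer, with its vehicle in the livers of mice lacking Pparg in macrophages, after 90 days of dosing. Its members are 8 of the 28 libraries of the series, 4 from DEHP-treated and 4 from vehicle-treated knockout mice, taken by the genotype, agent and time in the labels. The study profiled whole liver of C57BL/6 mice by RNA sequencing in knockout and wild-type animals, at 28 and 90 days. Every mouse, controls included, was dosed by gavage, with carboxymethylcellulose (CMC) at 0.5% or with DEHP at 625 mg/kg. All 8 libraries compared carry the macrophage-specific Pparg knockout, so neither arm has macrophages with intact Pparg by label. The sources used here name no Cre line, no age at dosing and no link from mouse to library. P-values therefore measure the spread between libraries, estimated within the groups of all 28. Values are FPKM, fragments scaled to transcript length and library size, and log2 fold changes are differences of log2(FPKM + 1), which understate the change of low genes.

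DEHP is metabolised to a monoester that activates peroxisome proliferator-activated receptors, above all PPARα, the fatty acid sensor of hepatocytes. In rodent liver PPARα, paired with the retinoid X receptor, switches on the genes of peroxisomal and mitochondrial fatty acid oxidation, of omega-hydroxylation by the Cyp4a cytochromes and of fatty acid uptake. PPARγ, the product of Pparg, is known for fat storage in adipocytes and for restraining inflammatory genes in macrophages. Macrophages are a small share of liver cells, so hepatocyte transcripts make up most of each library.

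Pparg was checked first. Its level was 2.28, 2.07, 1.51 and 3.58 FPKM in CMC libraries 1 to 4 and 4.37, 6.69, 5.02 and 5.19 FPKM in DEHP libraries 1 to 4. Every DEHP library lay above every CMC library, and the log2 fold change was 0.93 (SE 0.249, limma, adjusted p = 0.026). That call was lost when CMC library 1, 2 or 3 or DEHP library 2, 3 or 4 was left out, with adjusted p up to 0.0931. Whole liver also holds the Pparg of cells other than macrophages, which a deletion in macrophages leaves in place, and the sources used here do not say which part of the gene was deleted, so this level does not test the label. Lyz2, the macrophage lysozyme gene, read 1.12, 1.83, 2.19 and 1.34 FPKM under CMC and 1.27, 0.83, 1.04 and 1.88 FPKM under DEHP, with overlapping groups (log2 fold change -0.22, adjusted p = 0.725). In wild-type liver at 90 days Lyz2 stood at 85.3 ± 12.9 FPKM under CMC and 57.2 ± 6.32 FPKM under DEHP (SD, n = 4 each).

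Several libraries stood apart, and the values that touch the results are these. DEHP libraries 1 to 3 carried transcripts of the exocrine pancreas, whose listed genes summed to 27490, 11553 and 49078 FPKM, which is 4.47%, 1.93% and 8.28% of each library's FPKM. In DEHP library 4 the sum was 64.57 FPKM and in the CMC libraries 30.88 to 41.82 FPKM. Ctrb1, a chymotrypsinogen, was listed at 0 in all 4 CMC libraries and at 4591, 1829, 7438 and 4.98 FPKM in DEHP libraries 1 to 4. Of 36 tested exocrine genes 34 were called higher, 1 of them in all 8 fits that left out 1 library. In each CMC library 34 to 37 of the 41 measured exocrine genes were listed at 0. Most of those tested thus passed the filter, 1 FPKM in 3 or more of the 8 libraries, through DEHP libraries alone. The direction of these calls was therefore largely fixed by the filter. Ins2, an insulin gene of islet cells, was listed at 0 under CMC and at 44.18, 2.6, 16.09 and 10.28 FPKM under DEHP, library 4 included. Fat-cell transcripts moved the same way, with Cfd, the adipsin gene, at 0, 0, 0.53 and 0 FPKM under CMC and at 18.3, 12.48, 23.94 and 6.84 FPKM under DEHP, and Adipoq, the adiponectin gene, listed at 0 under CMC and at 4.17, 1.89, 3.48 and 0.63 FPKM under DEHP. Of the 9 fat-cell markers 4 were tested and 3 called higher, among them Cfd and Adipoq, which passed that filter through DEHP libraries alone. The sums of the 9 markers, made up mostly of Car3, which hepatocytes also express, overlapped (579.81 to 1507.37 FPKM under CMC, 1030.04 to 1292.91 FPKM under DEHP). Because DEHP library 4 is the only DEHP library without a large pancreas share, its values are given beside the results, but it stood apart in another way. All 16 endothelial markers were lower in it than in every CMC library, an order seen in 20.4% of all genes tested. The sum of these markers was 94.23 FPKM against 202.92 to 226.85 FPKM under CMC and 195.87 to 211.05 FPKM in the other DEHP libraries. None of the 16 was called, nor was any of the 15 macrophage markers, whose sums overlapped between the groups (280.11 to 469.73 FPKM under CMC and 312.15 to 443.32 FPKM under DEHP). In whole liver, fewer cells of a type and less RNA per cell cannot be told apart.

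**Figure D1:**
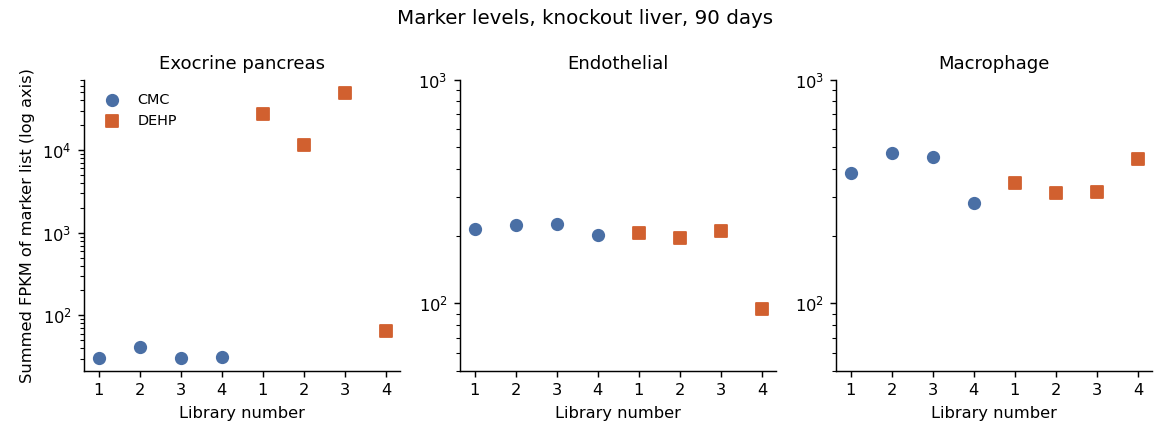
Summed FPKM of the exocrine pancreas, endothelial and macrophage marker lists in each of the 8 libraries, on a log axis. DEHP libraries 1 to 3 hold 11553 FPKM or more of exocrine transcripts, DEHP library 4 has the lowest endothelial sum (94.23 FPKM), and the macrophage sums of the groups overlap.

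Genes tied to the pancreas were set apart from liver genes. A gene was set apart if it is on an exocrine or endocrine pancreas list, or by a rule from the wild-type groups at 90 days. In both of these groups library 4 alone carries pancreas transcripts. The rule took genes whose log2(FPKM + 1) in library 4 exceeded the mean of libraries 1 to 3 by at least 1 in both groups. Lists and rule together took 60 of the 10434 genes tested, of which 50 were called, all higher under DEHP. The wild-type rule also took the fat-cell gene Cfd, described above, and the liver genes Cyp4a10, Cyp4a14, Acot1 and Cyp26a1. The first 3 of these liver genes are described with their lists below. Counts of genes not set apart leave out every gene that the rule took.

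Between the DEHP and CMC libraries 620 of 10434 genes tested (5.94%) were called, 485 higher (4.65%) and 135 lower (1.29%). Calls are by limma's moderated test at an adjusted p under 0.05. Of the 485 higher genes, 50 are among those set apart with the pancreas, and these shares include them. Without the genes set apart, 435 were higher and 135 lower. With DEHP library 4 as the only DEHP library, 90 and 22 of these were called, and with a pancreas score as a covariate 44 and 15 were called. All 435 and 135 kept their sign in both fits, but both reuse libraries that gave the calls, so this is no independent support. The score, the mean log2(FPKM + 1) of the exocrine genes, was 0.141 to 0.206 in the CMC libraries. It was 6.85, 5.89, 7.68 and 0.865 in DEHP libraries 1 to 4, so it largely follows the agent. Whether a call lost with it depends on the pancreas share was not tested. How the values are scaled decides the balance of directions. Higher genes made up 78.2% of calls as deposited, 58.9% after upper quartile scaling (369 higher, 257 lower), 49.6% after quantile normalization (347 higher, 353 lower) and 94.8% after rescaling without the pancreas-linked genes (1366 higher, 75 lower). That last scaling moved the median log2 fold change of all genes from 0.028 to 0.159. Directions of lists are therefore given only where the sign of their median was the same in all 4 scalings.

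**Figure D2:**
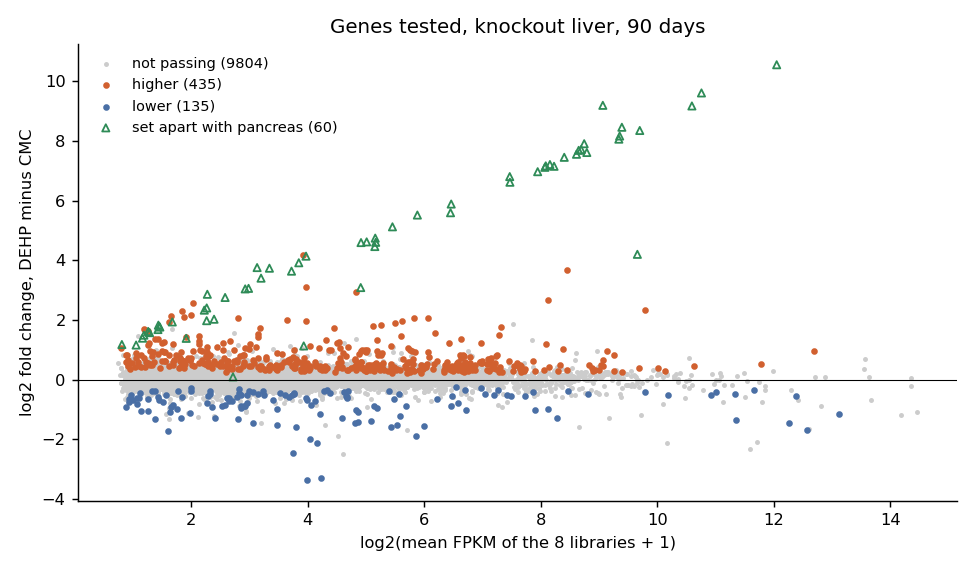
Log2 fold change (DEHP minus CMC) against log2(mean FPKM + 1), the mean being that of the 8 libraries, for the 10434 genes tested. Coloured points mark 435 genes called higher and 135 called lower, triangles mark the 60 genes set apart as pancreas-linked, and 9804 other genes did not pass.

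To show the upstream sequence of members described below, the 250 bases before the start site are printed for Fabp1, Cd36, Mogat1 and Serpina12, from RefSeq on GRCm38.p6. They are 4 of the described genes in whose window a search for the direct repeat bound by PPARα with its partner found a match, chosen after the matches were seen. Masp2 and Slc37a4, described below, also held a match. Capitals mark the match to AGGTCANAGGTCA on either strand, with at most 2 mismatches.
Fabp1, chr6:71199629-71199878, plus strand: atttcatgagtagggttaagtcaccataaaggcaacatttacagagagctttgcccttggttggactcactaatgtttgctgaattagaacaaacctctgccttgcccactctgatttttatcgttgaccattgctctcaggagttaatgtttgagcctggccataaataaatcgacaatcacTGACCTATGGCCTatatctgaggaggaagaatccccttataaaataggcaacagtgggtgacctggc
Cd36, chr5:17835897-17836146, minus strand: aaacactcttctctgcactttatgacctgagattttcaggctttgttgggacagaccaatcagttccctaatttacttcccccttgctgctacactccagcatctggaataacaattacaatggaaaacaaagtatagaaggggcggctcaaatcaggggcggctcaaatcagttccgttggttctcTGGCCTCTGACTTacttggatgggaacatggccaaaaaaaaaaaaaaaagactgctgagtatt
Mogat1, chr1:78510810-78511059, plus strand: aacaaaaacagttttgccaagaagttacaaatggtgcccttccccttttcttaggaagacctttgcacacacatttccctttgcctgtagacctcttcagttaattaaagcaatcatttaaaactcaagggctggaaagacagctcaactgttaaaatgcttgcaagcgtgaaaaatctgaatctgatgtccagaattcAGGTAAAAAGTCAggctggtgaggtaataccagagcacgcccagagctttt
Serpina12, chr12:104044444-104044693, minus strand: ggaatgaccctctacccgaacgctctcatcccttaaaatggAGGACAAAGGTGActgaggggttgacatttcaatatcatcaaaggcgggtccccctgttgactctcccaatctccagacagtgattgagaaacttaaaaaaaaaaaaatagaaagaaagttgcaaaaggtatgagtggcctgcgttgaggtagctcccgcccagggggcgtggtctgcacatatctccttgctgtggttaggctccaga

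The match begins 67 bases before the start site in Fabp1, 63 in Cd36, 51 in Mogat1 and 209 in Serpina12, and it has 1 mismatch in Fabp1 and 2 in the others. In windows from 250 bases before to 50 after the start site, such a match was found in 4.4% of the 27025 RefSeq promoters, in 3.99% of tested genes with a promoter, in 6.12% of those called higher (21 of 343) and in 6.67% of those called lower (7 of 105). With at most 1 mismatch the shares were 0.64%, 0.63%, 0.29% (1 gene) and 1.9% (2 genes). A match is a run of letters and was not tested as a binding site.

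The first group is the Cyp4a cytochromes, which hydroxylate fatty acids at the far end of the chain and lie together on chromosome 4. All 6 tested members were called higher, with a median log2 fold change of 3.11, and each call was kept whichever of the 8 libraries was left out. Cyp4a14 (chr4:115486200-115496158) read 0.94, 0.49, 0.25 and 1.42 FPKM under CMC and 766.06, 680.41, 1240.29 and 1591.4 FPKM under DEHP. Cyp4a10 (chr4:115518287-115533649) read 3.68, 1.99, 0.47 and 15.07 FPKM under CMC and 641.11, 592.64, 972.34 and 1309.42 FPKM under DEHP. Both genes were near 0 in most controls and at 592.64 FPKM or more after DEHP, and in both the library without a large pancreas share was the highest. Their log2 fold changes were 9.20 (SE 0.622, adjusted p = 7.1e-10) and 7.61 (SE 0.711, adjusted p = 1.8e-07). Cyp4a31 rose from between 0.13 and 0.75 FPKM to 21.99, 16.45, 33.79 and 39.08 FPKM (log2 fold change 4.16), and Cyp4a32 rose by 1.97. Cyp4a12a and Cyp4a12b, which are male-biased in mouse liver, started from higher levels and rose by 1.50 and 2.05. Cyp4a12a was steady within each group, at 80.15, 78.12, 82.06 and 78.59 FPKM under CMC and 211.19, 205.1, 271.75 and 226.04 FPKM under DEHP. The authors' counting may split reads between these near-identical genes, so the division among members is uncertain.

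In peroxisomal beta-oxidation, which shortens very long fatty acids, 12 of 22 tested genes rose and none fell (median log2 fold change 0.46, against 0.03 over all genes). Of the 12 calls 7 were kept in every omission of 1 library. Ehhadh, the bifunctional enzyme of the pathway, read 48.88, 47.92, 32.58 and 63.29 FPKM under CMC and 413.1, 415.23, 841.32 and 918.86 FPKM under DEHP (log2 fold change 3.66, SE 0.379, adjusted p = 8.9e-07). Acaa1b, a peroxisomal thiolase, read 322.91, 257.94, 163.84 and 456.4 FPKM under CMC and 1143.61, 1016.84, 1808.39 and 1895.95 FPKM under DEHP (2.33, SE 0.304, adjusted p = 3.0e-05). The groups did not overlap in either gene, which was so in 8.97% of all tested genes upwards and in 3.57% downwards. Abcd2, a peroxisomal importer of very long acyl chains, went from 0.24, 0.33, 0.12 and 0.16 FPKM to 2.98, 1.8, 6.29 and 4.6 FPKM (1.93, adjusted p = 4.6e-04). Ech1, an auxiliary isomerase, rose by 1.18, Decr2, a reductase for unsaturated chains, by 0.64, and Acaa1a by 0.60. The calls of Crat (1.05), which makes acylcarnitines, Eci2 (0.60), Hacl1 (0.55), Slc27a2 (0.49) and Hsd17b4 (0.44) were lost in 4 to 7 of the 8 omissions, DEHP libraries 3 and 4 among them each time. The peroxisome itself showed little of this. Of 20 tested assembly and matrix genes Pex7, a receptor that imports matrix enzymes, was the only one called, at 0.33, and that call was lost without CMC library 1 or 3 or DEHP library 3. Pex11a, which drives peroxisome division, stood at 0.38 (adjusted p = 0.362) and Cat, catalase, at 0.17 (adjusted p = 0.376).

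In mitochondrial beta-oxidation 12 of 18 tested genes were higher and none lower, with a median log2 fold change of 0.47. Of the calls 10 were kept in every omission, and Etfa (0.33) and Acaa2 (0.33) were not, both being lost without CMC library 1 or 3 or DEHP library 3 or 4, and Acaa2 also without CMC library 2. Eci1, an isomerase for unsaturated chains, read 70.97, 68.52, 62.24 and 94.73 FPKM under CMC and 159.46, 153.4, 204.21 and 184.99 FPKM under DEHP (1.24, SE 0.166, adjusted p = 3.9e-05). The acyl-CoA dehydrogenases Acadvl, Acadl, Acadm and Acads, which take chains of falling length, rose by 0.57, 0.83, 0.81 and 0.40. The subunits of the trifunctional protein, Hadha and Hadhb, rose by 0.59 and 0.81, and Decr1, the mitochondrial reductase, by 0.98. The carnitine shuttle that admits fatty acids did not pass, with Cpt1a at 0.19 (adjusted p = 0.643) and Cpt2 at 0.19 (adjusted p = 0.463). Ketone synthesis was called in 2 of 7 genes, both higher, among them Acat1, a mitochondrial thiolase, at 0.74 (adjusted p = 0.00248). Of 10 acyl-CoA thioesterases, which free fatty acids from coenzyme A, 5 rose. Acot1 read 4.59, 2.87, 2.64 and 11.15 FPKM under CMC and 33.75, 22.03, 75.29 and 80.19 FPKM under DEHP (3.08, adjusted p = 0.00172), and Acot13 rose by 0.51. Acot3 (2.11), Acot2 (1.36) and Acot4 (1.09) were lost without DEHP library 3 or 4, Acot2 and Acot4 also without CMC library 1, and Acot4 also without CMC library 2 or 3. Reads may be shared among Acot1 to Acot4, which are neighbours on chromosome 12.

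Over these lists (Cyp4a, peroxisomal, mitochondrial, ketogenic and thioesterase genes) 37 of 63 tested members were called, all higher. Of the 37, 24 were called with DEHP library 4 as the only DEHP library and 13 with the pancreas covariate. Within the DEHP group the 37 genes ranked the libraries alike. Libraries 3 and 4 both exceeded libraries 1 and 2 in 33 of the 37 (89.2%), an order seen in 23.1% of all genes tested and in 225 of the 435 higher genes (51.7%). The CMC group had an order too, with library 4 highest in 33 of the 37 (89.2%), against 33.4% of all genes. DEHP library 3 had the highest pancreas share and library 4 the lowest. These orders are descriptions of 8 libraries, and the labels give no feature of the libraries to set beside them.

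**Figure D3:**
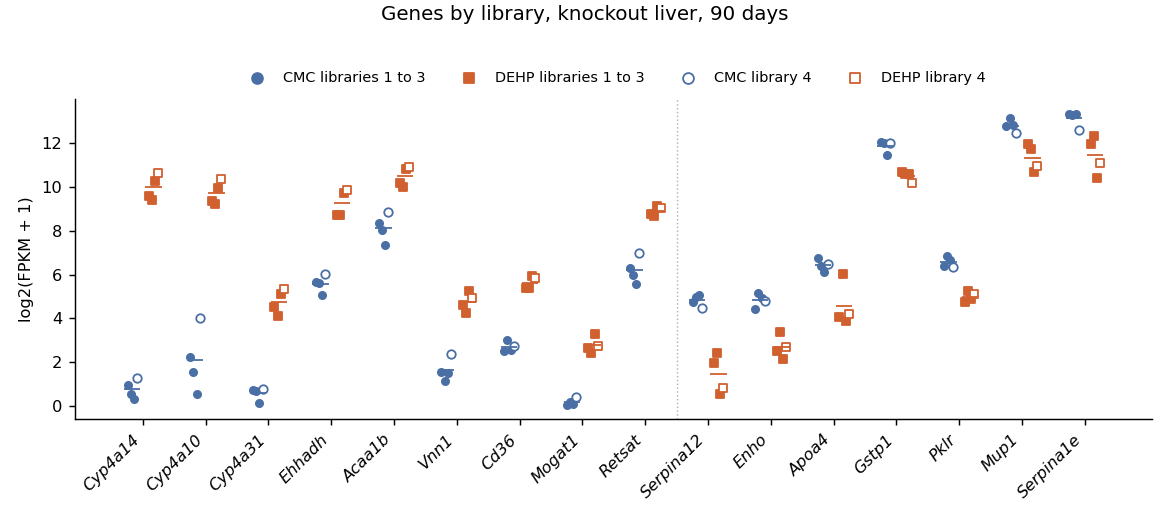
Values of log2(FPKM + 1) of 16 named genes in each library, CMC and DEHP side by side. Library 4 of each group is an open symbol and the group mean a line. The groups do not overlap in any of these genes, which for all but Cyp4a14 and Cyp4a10 was a condition of their choice. Among all genes tested 8.97% did not overlap upwards and 3.57% downwards. In Cyp4a14 the DEHP libraries lie between 680.41 and 1591.4 FPKM while the CMC libraries reach at most 1.42 FPKM.

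Genes of lipid uptake and droplets changed in 8 of 20, all higher, with a median log2 fold change of 0.73, and all 8 calls were kept in every omission and 3 with the pancreas covariate. Cd36, a fatty acid receptor of the cell surface, read 4.79, 7.07, 4.94 and 5.65 FPKM under CMC and 40.47, 40.72, 59.36 and 57.3 FPKM under DEHP (2.92, SE 0.237, adjusted p = 2.4e-08). Mogat1, which makes diacylglycerol, read 0.05, 0.16, 0.08 and 0.36 FPKM under CMC and 5.3, 4.35, 8.67 and 5.67 FPKM under DEHP (2.56, SE 0.151, adjusted p = 6.6e-11). Fabp1, the abundant fatty acid binding protein of hepatocytes, read 4197.43, 4672.18, 3079.53 and 6345.67 FPKM under CMC and 8072.26, 8163.94, 10374.17 and 8036.12 FPKM under DEHP (0.96, SE 0.201, adjusted p = 0.00491). The DEHP libraries were higher throughout in all 3. Lpl, lipoprotein lipase, rose by 2.01, Fabp2 by 1.55, Slc27a1, a fatty acid transporter, by 1.46 and Fitm1, a droplet protein, by 1.14. Cidea, a droplet protein best known from fat tissue, varied most. It was at 0, 0, 0 and 0.07 FPKM under CMC and at 1.32, 10.96, 6.6 and 1.85 FPKM under DEHP, with the smallest DEHP values in libraries 1 and 4. Fat-cell transcripts also differ between these groups, as given above, and their part in Cidea, Lpl and Cd36 was not tested. In library 4 Adipoq stood at 0.63 FPKM, Cfd at 6.84 FPKM, Cd36 at 57.3 FPKM and Lpl at 19.75 FPKM. Plin2, the main droplet coat protein of liver, stood at 0.15 (adjusted p = 0.704).

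Synthesis genes moved both ways. Of 26 genes of fatty acid and triglyceride synthesis 3 rose and 2 fell. Pklr, liver pyruvate kinase, which feeds glycolytic carbon into lipid synthesis, fell from 83.5, 112.78, 100.72 and 79.32 FPKM to 25.84, 37.12, 28.15 and 33.43 FPKM (-1.56, SE 0.224, adjusted p = 1.2e-04). Lpin1, a phosphatidate phosphatase, fell by 1.29 on the log2 scale (adjusted p = 6.2e-04). Elovl5, which lengthens polyunsaturated chains, rose by 1.21 (adjusted p = 0.00153), and its DEHP libraries, at 86.91, 90.37, 132.4 and 169.37 FPKM, were all above the CMC range of 39.66 to 61.69 FPKM. Me1, malic enzyme, stood at 0.91 and Acsl5, an acyl-CoA synthetase, at 0.56, both called, but not without CMC library 1 or DEHP library 3 or 4, nor, for Me1, without CMC library 2 or 3. The core lipogenic enzymes did not pass, with Fasn at -0.26 (adjusted p = 0.713), Acaca at -0.21 (adjusted p = 0.686) and the regulator Srebf1 at -0.02 (adjusted p = 0.979). Of 25 sterol synthesis genes 5 rose and 24 had a log2 fold change above 0 (median 0.55). Tm7sf2, a sterol reductase, kept its call in every omission (0.55, adjusted p = 0.00194). Acat2 (0.92), Pmvk (0.95) and Fdft1 (0.84) lost theirs without CMC library 1 or DEHP library 3 or 4, and for all but Acat2 also in further omissions. Among 18 bile acid genes Abcc3, an exporter on the sinusoidal side, rose by 1.34 and Abcg5 and Abcg8, the paired sterol exporter, by 0.95 and 0.84. The Abcg8 call was lost without CMC library 1 or 3 or DEHP library 3. Cyp7a1, which limits bile acid synthesis, stood at 0.60 (adjusted p = 0.593).

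Of 35 genes of xenobiotic handling 9 rose and none fell, with a median log2 fold change of 0.21. Nr1i3, the nuclear receptor CAR, read 26.72, 19.27, 20.03 and 19.7 FPKM under CMC and 40.57, 39.07, 38.55 and 45.08 FPKM under DEHP (0.91, SE 0.184, adjusted p = 0.00354). Cyp2c38 read 3.3, 1.82, 3.15 and 4.57 FPKM under CMC and 11.02, 8.91, 14.09 and 17.72 FPKM under DEHP (1.73, adjusted p = 4.7e-04). Ugt1a1, which conjugates bilirubin, rose by 0.70, and Aldh1a1, a retinal dehydrogenase, by 0.82. These 4 were called in every omission, and Aldh1a7, Cyp2c29, Cyp2e1, Ces1e and Ces1g in 2 to 7 of 8, DEHP library 4 being needed each time. Cyp3a11, a classical target of the receptor PXR, stood at 0.18 (adjusted p = 0.806). Of 24 genes of the NRF2 redox response 3 rose, namely Nqo1, a quinone reductase (0.98, adjusted p = 0.00314), Gstm4 (0.81) and Gsta1 (2.05), both glutathione transferases, and the Gsta1 call was lost without CMC library 2 or DEHP library 3.

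Of genes outside these lists, Vnn1, the pantetheinase vanin, rose from 1.92, 1.21, 1.83 and 4.26 FPKM to 23.75, 18.04, 36.84 and 29.34 FPKM (3.11, SE 0.382, adjusted p = 1.1e-05). Retsat, retinol saturase, rose from 78.11, 62.77, 46.73 and 124.98 FPKM to 430.9, 405.4, 557.78 and 520.23 FPKM (2.68, SE 0.316, adjusted p = 6.3e-06). Krt23, a keratin that also stands on the bile duct marker list, rose by 2.16 and Rad51b, a recombination gene, by 2.13. Of the 7 bile duct markers 3 were tested, and Krt23 alone was called.

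Among the genes that fell, the steepest was Serpina12, which encodes vaspin, on chromosome 12. It read 26.01, 31, 32.33 and 21.25 FPKM under CMC and 2.98, 4.35, 0.47 and 0.8 FPKM under DEHP (-3.37, SE 0.372, adjusted p = 2.2e-06). Enho, which encodes the secreted peptide adropin, read 20.92, 34.89, 29.56 and 26.37 FPKM under CMC and 4.74, 9.6, 3.47 and 5.59 FPKM under DEHP (-2.13, SE 0.278, adjusted p = 3.0e-05). Apoa4, an apolipoprotein, fell by 1.89 on the log2 scale (adjusted p = 0.00194), with DEHP library 2 at 63.34 FPKM, close to the CMC range of 68.87 to 106.68 FPKM, and the other DEHP libraries at 13.68 to 17.66 FPKM. Sdr9c7, a dehydrogenase of the retinol family, fell by 1.99, Slc22a7, an organic anion transporter, by 1.58, Ppp1r14a by 1.46 and Hcn3, a channel subunit, by 1.34. Each of these 7 calls was kept in every omission.

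The male-biased genes, which pulsed growth hormone keeps high in male mouse liver, had a median log2 fold change of -0.87, and 7 of 20 were called lower and 2 higher. The 2 higher were Cyp4a12a and Cyp4a12b, which kept their calls in limma with the pancreas covariate, a score that largely follows the agent. Of the 7 lower genes 0 did (adjusted p = 0.0691 for Gstp1, 0.133 for Mup20 and 0.187 for Serpina1e). Gstp1, a glutathione transferase, read 4232.32, 4005.37, 2798.86 and 4085.62 FPKM under CMC and 1622.84, 1512.82, 1541.15 and 1160.78 FPKM under DEHP (-1.37, SE 0.223, adjusted p = 4.6e-04). Serpina1e read 10145.73, 9934.93, 10001.51 and 6106.16 FPKM under CMC and 3948.97, 5069.56, 1362.49 and 2157.34 FPKM under DEHP (-1.68, SE 0.325, adjusted p = 0.00248). Mup20, a major urinary protein also called darcin, read 13598.91, 12643.11, 11387.82 and 10929.6 FPKM under CMC and 5932.9, 8600.96, 4393.52 and 3734.5 FPKM under DEHP (-1.17, SE 0.232, adjusted p = 0.00297). All 3 were lower in every DEHP library than in any CMC library. All 21 Mup genes of the table together held 25.2%, 28.2%, 19.6% and 20.3% of the FPKM of CMC libraries 1 to 4 and 17.3%, 15.9%, 9.32% and 11.4% of that of DEHP libraries 1 to 4. FPKM is scaled to library size, so a share of this size can touch the values of other genes. The Mup share was lower under DEHP, and the pancreas share was higher in DEHP libraries 1 to 3. The part of either share in the values of other genes was not tested. The calls of Mup21 (-1.30), Mup1 (-1.47), Moxd1 (-3.28) and Cyp2u1 (-0.72) were lost in 2 to 7 of the 8 omissions, for Mup1 in all but that of DEHP library 1. Gstp2 fell by 1.57. Reads may be shared within the Gstp, Serpina1 and Mup families. Of 5 tested female-biased genes Cyp2g1 was called, at 0.89.

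Of 19 genes of glucose and glycogen metabolism 6 were lower and none higher, with a median log2 fold change of -0.23. Ppp1r3b, which targets phosphatase to glycogen, read 50.78, 21.28, 45.77 and 38.48 FPKM under CMC and 15.53, 18.13, 17.13 and 17.57 FPKM under DEHP (-1.08, SE 0.231, adjusted p = 0.00591), and its call alone was kept in every omission. Slc37a4, the glucose 6-phosphate transporter, fell by 0.64, Khk, fructokinase, by 0.55, Pygl, glycogen phosphorylase, by 0.52 and Fbp1, fructose bisphosphatase, by 0.49. All 4 were lost without DEHP library 3. G6pc, glucose 6-phosphatase, was called at -1.47, but its groups overlapped (11.52 to 82.11 FPKM under CMC, 6.91 to 16.01 FPKM under DEHP), and 6 of 8 omissions lost it. Pck1 stood at -0.02 (adjusted p = 0.990). Of 32 complement and coagulation genes Hc (-0.54), C9 (-0.98), C6 (-0.88) and Masp2 (-0.27) were called lower and none higher, with a median of -0.195 as deposited, -0.036 after rescaling without the pancreas-linked genes and -0.319 after quantile normalization. Each was lost without CMC library 3 or DEHP library 3, and C6 in 7 of 8 omissions. Of 26 acute phase genes Ttr, transthyretin, was called (-0.35, adjusted p = 0.0498), in 1 of 8 omissions. With the pancreas covariate no gene of the xenobiotic, NRF2, sterol, bile acid, glucose, complement and acute phase lists was called. Since that score largely follows the agent, the part of the pancreas share in these lost calls was not tested. None of 27 interferon-stimulated, 11 urea cycle, 19 clock, 22 unfolded protein response and 12 periportal genes was called by limma, where 5.94% of all tested genes were, and 18.2% of all genes had an unadjusted p under 0.05.

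**Figure D4:**
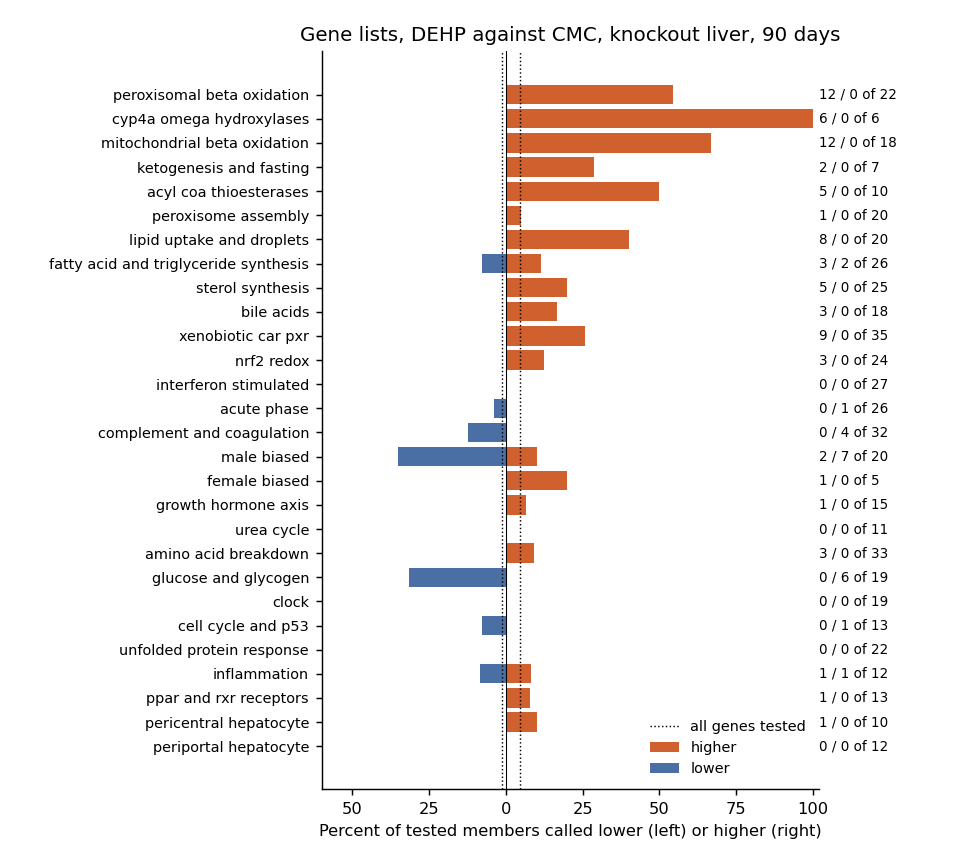
Percent of the tested members of each gene list called lower (left) and higher (right) under DEHP, with dotted lines at the shares of all genes tested (1.29% lower, 4.65% higher). All 6 Cyp4a genes were called higher, and lower calls exceed higher ones in the male-biased, glucose and complement lists.

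Markers of lymphoid cells were also measured. Cd79a, a chain of the B cell receptor, read 0.39, 0.6, 0.56 and 0.26 FPKM under CMC and 1.39, 2.3, 2.08 and 3.62 FPKM under DEHP (1.17, SE 0.235, adjusted p = 0.00344). The summed lymphocyte list lay between 2.01 and 6.19 FPKM under CMC and at 6.86, 7.02, 8.93 and 12.13 FPKM under DEHP, highest in library 4. Of its 12 members 2 passed the filter on low values, Cd79a through DEHP libraries alone, which favours a higher call. The other, Cd79b, read 0.25, 1.27, 0.83 and 0.14 FPKM under CMC and 1.22, 0.98, 2.49 and 2.56 FPKM under DEHP. Its groups overlapped and it was not called (0.80, adjusted p = 0.0589). Lyz1, a lysozyme that is not on the lymphocyte list, read 0.74, 1.24, 1.17 and 0.54 FPKM under CMC and 2.46, 2.2, 3.66 and 5.8 FPKM under DEHP (1.19, adjusted p = 4.2e-04).

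The response in the knockout was set against that of wild-type livers at 90 days. There 7.45% of genes were called, 5.42% higher and 2.02% lower. Of the 435 genes higher in the knockout 244 were also among the 566 higher in wild type, and of the 135 lower ones 46 were among the 211 lower there. Coq10a, a coenzyme Q binding protein, was called in opposite directions (0.37 in the knockout, -0.41 in wild type), the knockout call being lost without CMC library 1 or DEHP library 1, 3 or 4. Of the 37 oxidation genes 32 were called in wild type too. The log2 fold change was larger there in 28, but no such share was taken over all genes. Ehhadh, for example, stood at 4.45 in wild type and 3.66 in the knockout, with a difference of -0.79 (adjusted p = 0.962). No gene of 10434 passed limma's test of the difference between genotypes, and 603 (5.78%) had an unadjusted p under 0.05. The smallest adjusted p-values belonged to Coq10a (difference 0.78, adjusted p = 0.0581), Clec3b, the tetranectin gene (2.27, adjusted p = 0.0808), Sh3yl1 (0.70, adjusted p = 0.215), Lyz1 (1.26, adjusted p = 0.231) and Sgf29 (0.75, adjusted p = 0.339). Without DEHP library 2, Coq10a passed (0.83, adjusted p = 0.0493), and with DEHP library 4 as the only DEHP library Mzb1 (3.07, adjusted p = 0.00209) and Lyz1 (1.91, adjusted p = 0.00797) passed. Without the 5 libraries of 90 days that carry pancreas transcripts, which leaves 1 knockout DEHP library, 28 genes passed, 16 of them on a pancreas list, among them Ins2. The others included Mzb1 and Jchain, both expressed in plasma cells, Lyz1, Coro1a, a gene of leukocytes, and Acot3. Mzb1 read 0, 0.11, 0 and 0 FPKM under CMC and 0.73, 1.24, 2.54 and 6.59 FPKM under DEHP. In that fit these genes rest on DEHP library 4, where Mzb1, Lyz1 and Coro1a (14.05 FPKM, against 2.42 to 5.87 FPKM in the other 7 libraries) were each at their highest.

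The same dose had been given to knockout mice for 28 days, with 3 libraries per group. In those libraries Xist read 29.79 to 40.19 FPKM and Ddx3y, on the Y chromosome, was listed at 0, whereas the 8 libraries of 90 days had Xist at 0 to 0.02 FPKM and Ddx3y at 6.27 to 12.45 FPKM. All are labelled male, so time and the sex transcripts cannot be told apart. At 28 days 11.7% of genes were called higher and 8.92% lower, and the difference between the responses was called for 653 genes (6.26%), 357 with a higher log2 fold change at 90 days (3.42%) and 296 with a lower one (2.84%). Of the 653, 507 were called at 28 days only, 44 at 90 days only and 70 at both in the same direction, 69 of which were larger at 28 days. The count was 146 with DEHP library 4 alone for 90 days. Of the 37 oxidation genes 36 were called higher at 28 days too, as were 270 of the 435 higher genes not set apart. In 33 of the 37 the log2 fold change was larger at 28 days, but no such share was taken over all genes. Over the 63 tested members of the oxidation lists the difference was called lower at 90 days for 16 and higher for 2. Lpl stood at 4.11 then and 2.01 at 90 days (difference -2.10, adjusted p = 3.7e-04), and Mogat1 at 4.30 and 2.56 (-1.74, adjusted p = 6.4e-05). Cd36 stood at 2.99 and 2.92 (-0.07, adjusted p = 0.956). Cyp4a14 went the other way (difference 5.27, adjusted p = 0.00121). Its level was 464 ± 469 FPKM under CMC at 28 days (SD, n = 3) and 0.775 ± 0.516 FPKM at 90 days (SD, n = 4), and its DEHP means were 4459 ± 515 and 1070 ± 426 FPKM.

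Sex-biased genes also differed between the times. Cyp4a12a stood at 0.387 FPKM under CMC and 168 FPKM under DEHP at 28 days, and at 79.7 ± 1.78 and 229 ± 30.1 FPKM (SD, n = 4) at 90 days, a difference in log2 fold change of -5.43 (adjusted p = 3.2e-14). Gstp1 rose from 347 ± 14.3 to 873 ± 192 FPKM at 28 days (SD, n = 3) and fell from 3781 ± 661 to 1459 ± 204 FPKM at 90 days (SD, n = 4). It was 1 of 7 genes called at both times in opposite directions, with Gstp2, Cyp2g1, Coq10a, Arl13b, Dpys and Upp2. Nr1i3 stood at -0.25 at 28 days and 0.91 at 90 days (difference 1.16, adjusted p = 0.0121), and Cyp2c38 at -0.62 and 1.73 (2.34, adjusted p = 0.00147). Of complement and coagulation genes 28 of 32 were lower at 28 days and 4 at 90 days, and for 16 the difference was called. The NRF2 list went from 16 of 24 higher to 3, with 10 differences called.

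**Figure D5:**
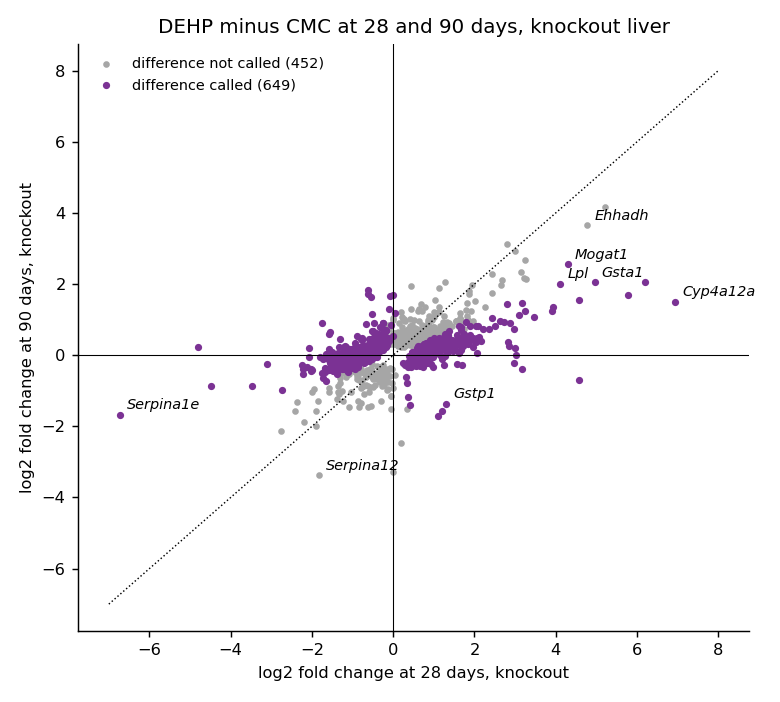
Log2 fold change of DEHP against CMC in the knockout at 28 days (horizontal) and 90 days (vertical), with the diagonal dotted. Coloured points are 649 genes not set apart whose difference between times was called, grey points are 452 others called at 90 days, and Cyp4a12a, Serpina1e and Gstp1 lie far from the diagonal.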

How the data were processed

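Per the labels, liver RNA was extracted with Trizol and sequenced as Illumina TruSeq libraries. The authors deposited 1 table of FPKM per gene and library, to 2 decimals. Cuffdiff and the builds mm10 and GRCm38 are named in the submitters' processing notes, and the aligner and read totals are not given in the sources used here. Of 17792 genes 17743 (99.7%) were matched to RefSeq on GRCm38.p6 by Entrez number, and positions are RefSeq's. FPKM sums were 573429 to 636077 in the 8 libraries, and the spacing of low values put depth at 9.18 to 13.02 M fragments, an approximate figure that gives no counting interval.

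Genes with at least 1 FPKM in 3 or more of the 8 libraries were tested on log2(FPKM + 1), a pseudocount of 1. A gene below 1 FPKM in every CMC library, such as Cyp4a31 or Mogat1, was tested only because its DEHP libraries were higher. A linear model with 8 group means and a variance trend was fitted to all 28 libraries in limma 3.58.1 under R 4.3.3 (20 residual and 4.14 prior degrees of freedom), and calls had a two-sided Benjamini-Hochberg adjusted p under 0.05. Knockout response minus wild-type response at 90 days, and 90 minus 28 days, were tested in the same fit. In simulated data with 200 of 10434 genes changed, 40.3% of 1.41-fold, 92.5% of 2-fold and 95.5% of 4-fold changes were recovered, with 8 false calls. The noise was drawn for each gene on its own, without shifts shared by a whole library such as those described above. Recovery in the measured libraries may therefore be lower and false calls more frequent. The members, lists and tests were chosen with earlier results of these data known. Named genes were the 12 highest and 12 lowest called log2 fold changes without overlap, not set apart and with a mean of at least 1 FPKM, the 3 smallest adjusted p of each list with 2 or more calls, Pparg, Lyz2, the 6 most abundant exocrine genes, the 5 smallest p of each difference and the 2 most abundant members of each marker list, beside other list members. Alternatives changed the pseudocount, filter, scaling, weights, replicate block, libraries fitted and a pancreas covariate. Some list members are counted but not reported by name here.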

Additional observations from a re-analysis of the deposited data

Results flagged for a closer look

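Among 198 groups of 4 libraries examined for the named genes, 18 held a library far from the other 3, where chance gives about 1 in 20. In CMC library 4, Cidea was at 0.07 FPKM where the others were listed at 0, Serpina1e at 6106.16 FPKM, below the others, and Decr1 at 44.1 FPKM, above the others. In CMC library 3, Rad51b was at 0.44 FPKM and Cfd at 0.53 FPKM where the others were listed at 0, Gstp1 was low at 2798.86 FPKM, and Alb, the albumin gene, was low at 14340 FPKM against 22182 to 23681 FPKM. In CMC library 1, S100a9, a neutrophil gene, was at 25.02 FPKM against 1.76 to 5.66 FPKM, and Bckdha and Bckdhb, subunits of the branched-chain keto acid dehydrogenase, were low at 103.84 and 26.13 FPKM. In CMC library 2, Cela1, an elastase, was high at 38.93 FPKM. In DEHP library 2, Apoa4 was at 63.34 FPKM against 13.68 to 17.66 FPKM. In DEHP library 3, Acat1 was high at 150.46 FPKM and Slc37a4 low at 43.96 FPKM. In DEHP library 4, Clec4g, a marker of sinusoidal endothelium, was at 21.94 FPKM against 47.6 to 50.46 FPKM, C1qa, a macrophage complement gene, was at 68.7 FPKM against 44.29 to 48.04 FPKM, and Bckdhb and Aldh4a1 were high at 50.02 and 181.69 FPKM.

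The response of 23 named genes differed between 90 and 28 days in limma's test, and these times also differ in sex transcripts. The difference in log2 fold change (90 minus 28 days) was positive in Cyp4a14 (5.274), Serpina1e (5.053), Cfd (3.598), Cyp2c38 (2.344), C9 (1.745), Clec3b (1.739), Serpina1c (1.694), Adipoq (1.692), Cd79a (1.689), Lyz1 (1.153), Apoa1 (0.991), Sh3yl1 (0.72) and Coq10a (0.697). It was negative in Cyp4a12a (-5.432), Cyp4a12b (-4.137), Gsta1 (-2.903), Gstp2 (-2.782), Gstp1 (-2.672), Lpl (-2.098), Mogat1 (-1.736), Gstm4 (-1.28), Ndufab1 (-1.226) and Aldh1a1 (-1.059).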

How the results depend on the processing

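Of 620 genes called, the pseudocount, filter, upper quartile, quantile, weights, all-library block and 16-library alternatives, and leaving out pancreas-linked genes, gave 475 to 882. Rescaling without the pancreas-linked genes gave 1441, the fit of the 8 libraries 409, the pancreas covariate 63, DEHP library 4 alone (assumed to vary like other groups) 137, and leaving out the 5 libraries with pancreas transcripts, chosen after seeing the data, 265. Omitting 1 library gave 257 to 551, the lowest without DEHP library 3 and with 295 without CMC library 1, 396 without CMC library 3 and 399 without DEHP library 4. Calls over the gene lists, cell type markers left out, numbered 98, with 18 under the covariate, 43 with DEHP library 4 alone, 65 without the 5 libraries and 55 to 94 in the omissions (64 without CMC library 1, 55 without DEHP library 3). The difference between genotypes gave 0 genes, 2 with DEHP library 4 alone, 28 without the 5 libraries and 0 to 1 in the omissions. The difference between times gave 653 genes, 1148 with library weights, 146 with DEHP library 4 alone, 231 without the 5 libraries and 519 to 690 in the omissions. Fewer libraries make the omission fits smaller by construction, and otherwise the cause of these changes was not tested.

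With the replicate number as a block, 588 genes were called in the fit of all libraries and 224 in that of the 8 libraries. Same-numbered libraries did not deviate together (r = -0.022, 0.041, -0.106 and -0.014), and the own number gave the highest correlation for 1 of 4. No pairing by number was seen, though 8 libraries are too few to exclude it. Lyz2 changed sign with DEHP library 4 alone and without the 5 libraries (0.155 in both), Prss2 under the covariate (-0.075) and Cela1 under the covariate (-0.751), with DEHP library 4 alone and without the 5 libraries (-0.488 in both). Of 80 named genes that were called, 26 kept the call under the covariate, 40 with DEHP library 4 alone, 52 without the 5 libraries and 57 to 76 in the omissions. The differences between genotypes and times could not be fitted to the 8 libraries, nor that between times to the 16 libraries of 90 days. Depth limits low genes: at 1 FPKM, values rest on few fragments, and no interval could be given without counts.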

Other observations

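Gene families were also gathered by symbol, after the values had been seen, and they have no test of their own. Of 10 retinol dehydrogenases and saturase, Retsat, Rdh16 (1.80), Rdh9 (0.98) and Rdh11 (0.90) rose and Rdh5 fell by 0.45 on the log2 scale. The glutathione transferases split, with 7 of 20 higher, among them Gstt2 (1.46) and Gstt3 (0.98), and with Gstp1 and Gstp2 lower. Both vanins rose, Vnn3 by 1.31. All 3 inhibin beta chain genes, whose products form activins and inhibins, were lower, Inhba at -1.08, Inhbe at -0.84 and Inhbc at -0.62 (adjusted p = 0.0300, 0.0301 and 0.0442), and after rescaling without the pancreas-linked genes 1 of the 3 was called. Of 17 Serpina genes 4 fell and Serpina7, the thyroxine-binding globulin gene, rose by 1.72. Of the heat shock genes Hspa1b (-1.52), Dnaja4 (-0.84) and Hspa1a (-0.76) were lower among 47 tested.

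Small shifts spread over whole mitochondrial complexes depended on the scaling. Of 79 genes of the respiratory chain and ATP synthase 18 were called higher as deposited, with a median log2 fold change of 0.185, but 3 after upper quartile scaling, 2 after quantile normalization and 50 after rescaling without the pancreas-linked genes. The 78 cytosolic ribosomal protein genes had a nearly equal median of 0.181 with 5 calls, which became 0 after upper quartile scaling. Cox6b2, a cytochrome oxidase subunit, stood out at 1.24.

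Single members of other lists were called higher, namely Igfbp2 (1.01) of the growth hormone axis, Il1rn (0.91) of the inflammation list, and Aldh4a1 (0.40), Bckdhb (0.37) and Bckdha (0.33) of amino acid breakdown, or lower, namely Icam1 (-0.95), also of the inflammation list, and Rrm2 (-0.98), a ribonucleotide reductase subunit. None of these kept its call in every omission of 1 library. Of 12 tested inflammation genes Il1rn was the only 1 with a log2 fold change above 0, and the median was -0.41.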
